A study of Homo sapiens with 16 samples.

Results

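The troponin and tropomyosin genes encode the regulatory proteins of the thin filament, and 10 of them were followed here among the 43388 genes of the deposited table. The genes were picked by name, with no cutoff on their values: TNNC1, the troponin C of heart and slow muscle; TNNT2 and TNNT1, the cardiac and slow skeletal troponin T; TNNI1, TNNI3 and TNNI2, the slow skeletal, cardiac and fast skeletal troponin I; TPM1, TPM3 and TPM4, tropomyosins; and TNNI3K, a cardiac kinase named for its binding to cardiac troponin I. In striated muscle a tropomyosin coiled coil lies along the actin filament and blocks myosin until calcium binds troponin C, while troponin I holds the filament in the blocked state and troponin T ties the complex to tropomyosin. The developing heart uses the slow skeletal troponin I made from TNNI1 and replaces it around and after birth with TNNI3, so that the balance of these genes is widely read as a measure of the developmental stage of cultured cardiomyocytes. Tropomyosins also coat actin outside the sarcomere, and TPM3 and TPM4 are best known for cytoskeletal forms in many cell types.

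RNA was measured in 16 libraries from cardiomyocytes derived from human pluripotent stem cells (hPSC-CMs) of WTC11, an established induced pluripotent stem cell line. The 4 groups held 4 libraries each, and all groups came from cryopreserved cardiac progenitors of that line that had been driven by CHIR99021 and then IWP2 and were grown to Day 16 in RPMI/B27, that is RPMI1640 medium with the B27 supplement. The first group was collected at Day 16, and the others were kept to Day 30 in RPMI/B27, in RPMI_glcM/B27 (the same medium with glucose lowered to 5 mM) or in HPLM/B27 (a medium made to resemble human plasma, whose glucose the 5 mM matched). The wells were of a single line, so differences are read against the spread between wells and not between donors, and purity had been checked by flow cytometry for cardiac troponin T, the protein made from TNNT2. In bulk RNA, fewer cells of a type and less RNA per cell cannot be told apart.

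The deposited unit was TPM, in which the reads of each gene are corrected for its length and made to sum to 1000000, and the whole reads behind the values could be recovered, 7744768 to 16183655 per library. Between 41.0% and 48.3% of the TPM of a library came from the mitochondrial ribosomal RNA gene RNR2 and 8.76% to 13.8% from the small nuclear RNA RN7SK, so a change in either moves all other values. Compared with Day 16, the median log2 fold change over all 16122 genes tested was -0.28 in Day 30 RPMI/B27, -0.22 in Day 30 RPMI_glcM/B27 and -0.29 in Day 30 HPLM/B27, and values after median-of-ratios rescaling, which centres the genes on 0, are therefore given beside the deposited ones. The level of its counterpart RNR1 spread widely, from 49.5 to 29276 TPM, and exceeded 3000 TPM in 7 of the 16 libraries. The 10 cardiomyocyte markers examined, MYH6, MYH7 and TTN among them, summed to between 10550.4 and 15660 TPM in every library. This sum hides opposite changes. MYH6 had a mean of 2130 TPM at Day 16 and 746, 962 and 658 TPM in Day 30 RPMI/B27, RPMI_glcM/B27 and HPLM/B27. In the same order PLN had means of 1503 TPM at Day 16 and 2795, 3360 and 3851 TPM at Day 30.

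TNNI3 and TNNT1 lie 2560 bases apart on chromosome 19, and their upstream sequences are shown with that of TNNT2, the troponin T gene of chromosome 1, because TNNI3 and TNNT1 both rose after Day 16, as given further on, and TNNT2 did not pass the test. The stretches are the 250 bases before the transcription start in the RefSeq table for GRCh38.p14, written 5′ to 3′ on the strand of the gene, the minus strand for all 3. Capitals mark matches to 3 motifs on either strand, so that the reverse complement of a motif is marked too, and no 2 matches overlap in the windows shown. One motif, AGATAA, is a form of the site bound by GATA factors. Another, CATTCC, is the MCAT motif known from muscle promoters. The last, TATAAA, is a TATA motif.
TNNI3 chr19:55157733-55157982: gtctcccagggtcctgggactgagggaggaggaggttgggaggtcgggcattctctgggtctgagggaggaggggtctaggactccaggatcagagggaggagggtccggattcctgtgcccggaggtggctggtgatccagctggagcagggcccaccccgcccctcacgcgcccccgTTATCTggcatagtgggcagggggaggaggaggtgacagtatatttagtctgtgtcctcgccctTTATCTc
TNNT1 chr19:55149207-55149456: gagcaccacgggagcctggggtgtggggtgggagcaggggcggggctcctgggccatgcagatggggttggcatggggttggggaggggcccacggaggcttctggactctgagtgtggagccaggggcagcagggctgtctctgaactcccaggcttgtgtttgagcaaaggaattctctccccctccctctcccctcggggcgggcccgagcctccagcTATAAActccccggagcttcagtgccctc
TNNT2 chr1:201377681-201377930: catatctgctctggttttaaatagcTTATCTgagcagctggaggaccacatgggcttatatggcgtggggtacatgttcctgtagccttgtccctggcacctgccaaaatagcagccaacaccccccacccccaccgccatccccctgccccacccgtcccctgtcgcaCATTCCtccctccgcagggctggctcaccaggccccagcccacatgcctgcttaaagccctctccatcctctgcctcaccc
The TNNI3 window held the GATA motif at 2 places, starting 71 and 7 bases before the start. The TNNT1 window held the TATA motif 29 bases before the start and neither of the others, and the TNNT2 window held the GATA motif 225 bases and the MCAT motif 81 bases before it. Among all 35116 windows of this length in the table, 9.17% held the GATA motif, 11.9% the MCAT motif and 10.7% the TATA motif. The table had windows for 7 of the 10 genes, and TNNI1, TNNI2 and TNNC1 had none. A match is a description of the letters and not a site of binding.

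On the deposited TPM scale, which is per length, the order of the mean levels at Day 16 was TNNT2, TNNC1, TPM1, TNNI1, TNNI3, TPM4, TPM3, TNNT1, TNNI3K and TNNI2. TNNT2 and TNNC1 did not differ beyond their spread, at 2932 ± 515 and 2834 ± 778 TPM (SD, n = 4), and their libraries overlapped in Day 30 RPMI/B27 and HPLM/B27 as well but not in RPMI_glcM/B27. TPM3 and TNNT1 exchanged places, with TNNT1 lower at Day 16, overlapping libraries in RPMI/B27 and RPMI_glcM/B27, and TNNT1 higher in all libraries of HPLM/B27. TNNI3 passed TPM1 in the mean in RPMI_glcM/B27, where their libraries overlapped, and stood above it in every library of HPLM/B27. The order depends on the lengths behind the TPM. The recovered length of TPM1 was 7386 bases, 6.07 times the 1217 bases of its MANE Select transcript, the reference transcript agreed by RefSeq and Ensembl, whereas the recovered lengths of TNNI1 (6110 bases) and TNNI3 (843 bases) equalled theirs. Per MANE Select length, an alternative chosen after the values were seen, TPM1 had the highest mean in every group. At Day 16 it was at 6509 ± 562 against 3893 ± 684 for TNNT2 (SD, n = 4), with no overlap of libraries, whereas the libraries of both genes overlapped in each Day 30 medium, as in HPLM/B27 at 5477 ± 418 against 4944 ± 751 (SD, n = 4). Fold changes of a gene between groups do not depend on its length, as long as the same length is used for every library.

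**Figure D1:**
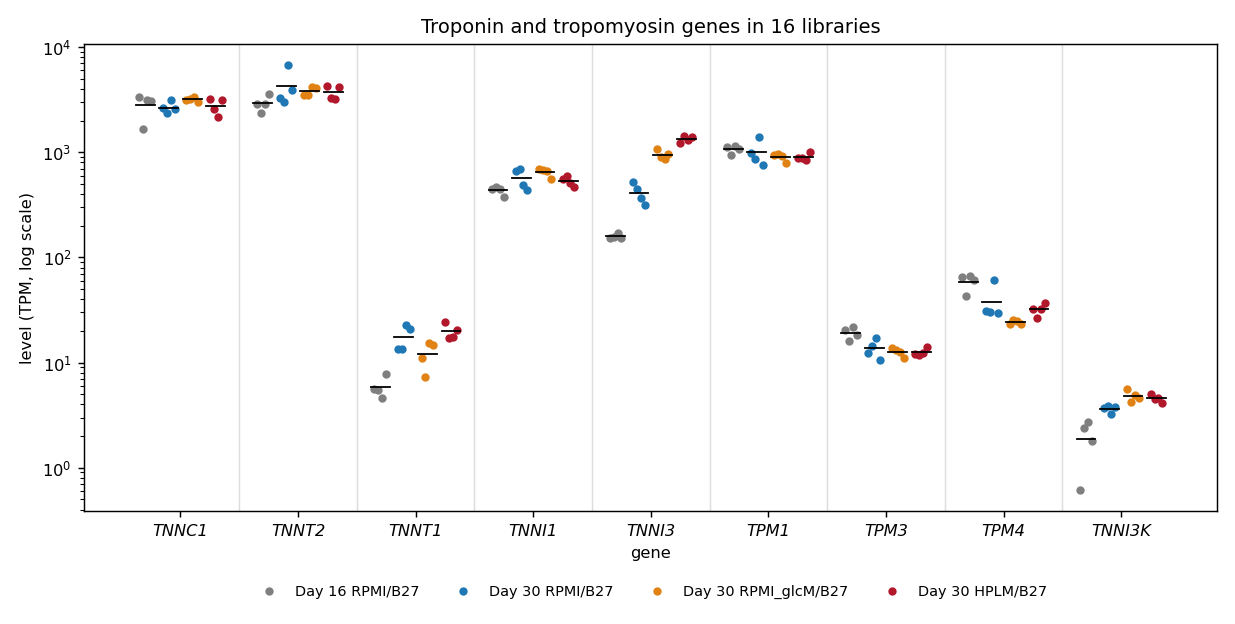
Level in TPM (log axis) of 9 of the 10 genes in each of the 16 libraries, coloured by group, with a black line at the mean of each group of 4. TNNI3 climbed from 153 to 171 TPM at Day 16 to between 1239 and 1422 TPM in Day 30 HPLM/B27, while TNNC1 and TPM1 stayed in overlapping ranges, and TNNI2, listed at 0 in some libraries, is left out.

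TNNI3, the cardiac troponin I, had the largest log2 fold change of the 9 members tested in each comparison with Day 16 except that with RPMI/B27, where TNNT1 had a larger one. Its level in the 4 Day 16 libraries was 153.4, 155.7, 171 and 153.3 TPM. In Day 30 RPMI/B27 it was 518, 443.8, 363.8 and 314 TPM, and in RPMI_glcM/B27 it was 1073, 897, 854 and 955 TPM. In HPLM/B27 it was 1239, 1422, 1299 and 1387 TPM. The 4 groups formed 4 separate ranges in the order Day 16, RPMI/B27, RPMI_glcM/B27 and HPLM/B27. Libraries were apart for 17.9%, 30.2% and 35.9% of all genes tested in the comparisons of RPMI/B27, RPMI_glcM/B27 and HPLM/B27 with Day 16, and for 7% of RPMI_glcM/B27 and 7.3% of HPLM/B27 against RPMI/B27. Compared with Day 16, the log2 fold change was 1.34 in RPMI/B27 (standard error 0.13, adjusted p = 8.56e-06 by limma), 2.57 in RPMI_glcM/B27 (limma adjusted p = 6.71e-09, standard error 0.13) and 3.07 in HPLM/B27 (limma adjusted p = 3.96e-10, standard error 0.13), and after rescaling it was 1.68, 2.83 and 3.41.

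Among the Day 30 media, TNNI3 was higher in RPMI_glcM/B27 than in RPMI/B27 by 1.22 on the log2 scale (standard error 0.13, limma adjusted p = 8.40e-05) and higher in HPLM/B27 than in RPMI/B27 by 1.73 (standard error 0.13, limma adjusted p = 2.98e-06). The media matched in glucose, HPLM/B27 and RPMI_glcM/B27, differed by 0.50 (standard error 0.13), which did not pass the threshold in limma on deposited TPM (adjusted p = 0.208). After rescaling it was 0.58 (standard error 0.09) and did pass (limma adjusted p = 0.00582). Over 10 alternatives other than leaving out single libraries the limma adjusted p ran from 0.000580 to 0.347, under 0.05 in 4. All 4 HPLM/B27 libraries were above all 4 RPMI_glcM/B27 libraries, as was so in one direction or the other for 7.28% of all genes tested.

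TNNI1, the slow skeletal form used by the early heart, did not fall between Day 16 and Day 30. Its level was 447.9, 469.7, 449 and 379 TPM at Day 16 and 668, 695, 487 and 434 TPM in Day 30 RPMI/B27. It was 700.9, 682, 668 and 557 TPM in RPMI_glcM/B27 and 554, 597, 507 and 472 TPM in HPLM/B27. The Day 30 libraries of RPMI_glcM/B27 and HPLM/B27 were all above those of Day 16, and the ranges of the 3 media overlapped. The log2 fold change against Day 16 was 0.36 in RPMI/B27 (standard error 0.14, limma adjusted p = 0.0825), 0.58 in RPMI_glcM/B27 (standard error 0.14, limma adjusted p = 0.00933) and 0.28 in HPLM/B27 (standard error 0.14, limma adjusted p = 0.153). After rescaling it was 0.70, 0.84 and 0.62, past the threshold in all 3 media (limma adjusted p = 2.31e-06, 2.51e-07 and 3.47e-06). HPLM/B27 was lower than RPMI_glcM/B27 by -0.29 (standard error 0.14, limma adjusted p = 0.793), a difference that also missed the threshold after rescaling (-0.22, standard error 0.06, adjusted p = 0.101). Against RPMI/B27 the value in HPLM/B27 was -0.079 (standard error 0.14, limma adjusted p = 0.869). It was -0.36 and passed without the 2 RPMI/B27 libraries of highest RNR1 (limma adjusted p = 0.0423), the 1 of 10 alternatives in which it did.

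The ratio of TNNI3 to TNNI1 within a library does not depend on the scaling of TPM. It was 0.343, 0.332, 0.381 and 0.404 at Day 16 and 0.775, 0.638, 0.746 and 0.724 in Day 30 RPMI/B27. It was 1.53, 1.32, 1.28 and 1.71 in RPMI_glcM/B27 and 2.24, 2.38, 2.56 and 2.94 in HPLM/B27. The groups again formed 4 separate ranges, and TNNI1 was the higher of the pair in the 8 libraries of RPMI/B27 and TNNI3 in the 8 others. The mean ratio was 0.365 ± 0.0336 at Day 16, 0.721 ± 0.0589 for RPMI/B27, 1.46 ± 0.203 for RPMI_glcM/B27 and 2.53 ± 0.304 for HPLM/B27 (SD, n = 4). In exact two-sided permutation tests of 4 libraries against 4, whose smallest possible p is 0.0286, all 6 comparisons of this ratio reached that p (adjusted p = 0.0403 over 24 tests of 4 ratios). The ratio was 1.98-fold higher in RPMI/B27, 3.99-fold higher in RPMI_glcM/B27 and 6.92-fold higher in HPLM/B27 than at Day 16, and 1.74-fold higher in HPLM/B27 than in RPMI_glcM/B27. According to the paper, quantitative PCR across independent differentiations, which pooled WTC11 with other lines, did not reproduce this last difference. The libraries here are of WTC11 alone. For TNNI3 itself, the paper reports a higher level in HPLM/B27 than in RPMI_glcM/B27, both by that PCR and by RNA sequencing.

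The point at which TNNI3 passes TNNI1 rests on the length taken for TNNI1. The annotation (GENCODE release 44) holds 3 TNNI1 transcripts with a consensus coding sequence, of 6110, 1750 and 1100 bases, and the deposited values use the longest. With the 1100 bases of the shortest, an alternative chosen after the values were seen, every TNNI1 level would be 5.55 times higher and the mean ratio would be 0.0657 at Day 16, 0.130 for RPMI/B27, 0.263 for RPMI_glcM/B27 and 0.456 for HPLM/B27. TNNI1 would then be above TNNI3 in all 16 libraries. Because 1 length is applied to every library, the order of the groups and the folds between them are the same under either by construction. They could differ if the use of the transcripts changed between groups. Which transcripts the cells made is not answered by a table of 1 value per gene.

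**Figure D2:**
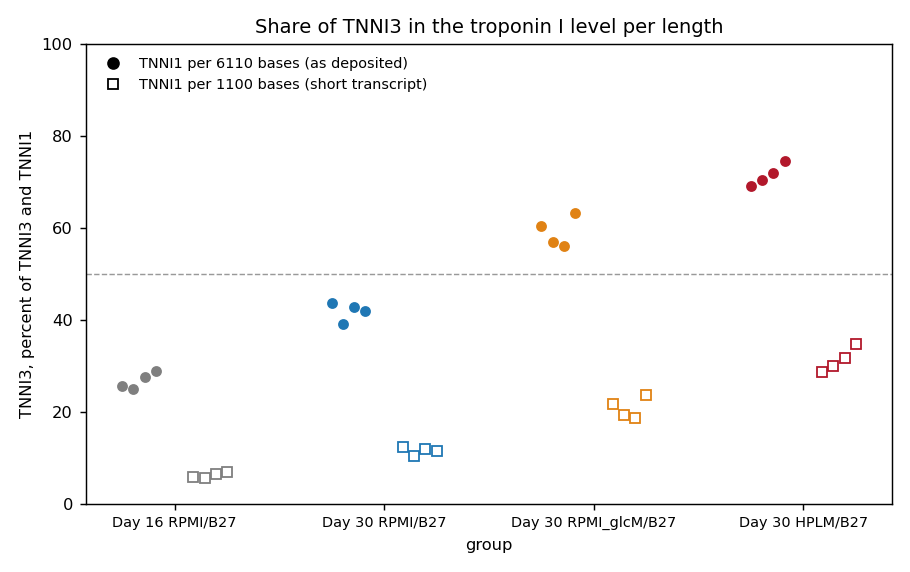
Percent of the summed level of TNNI3 and TNNI1 that was TNNI3, for each library by group, with TNNI1 per 6110 bases as deposited (filled circles) and per 1100 bases (open squares); the dashed line marks 50. As deposited, the share rose from a mean of 26.7% at Day 16 to 71.5% in HPLM/B27, and with the short length from 6.16% to 31.2%.

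TNNI2, the fast skeletal troponin I, was at the limit of detection. It had 0 or 1 read per library at Day 16, 1 to 11 reads in Day 30 RPMI/B27, 0 or 1 in RPMI_glcM/B27 and 1 or 2 in HPLM/B27, and its mean of 0.373 TPM over all libraries was under the minimum of 1 TPM for testing. The highest value, 2.45 TPM from 11 reads, was in replicate 2 of RPMI/B27. No difference between groups was detectable at this depth, and it took at most 0.215% of the summed troponin I TPM in any library.

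TNNT2, the cardiac troponin T, was the most abundant member on the deposited scale in every group. Its level was 2895, 2350.2, 2876.5 and 3605 TPM at Day 16 and 3281, 3017, 6736 and 3911 TPM in Day 30 RPMI/B27. It was 3511, 3541, 4173 and 4084 TPM in RPMI_glcM/B27 and 4237, 3259, 3208 and 4187 TPM in HPLM/B27. The ranges of all 4 groups overlapped, and replicate 3 of Day 30 RPMI/B27 stood above every other library. The log2 fold change against Day 16 was 0.47 for RPMI/B27, 0.40 for RPMI_glcM/B27 and 0.35 for HPLM/B27 (standard error 0.20 each), which did not pass the threshold (limma adjusted p = 0.106, 0.182 and 0.214). After rescaling these were 0.81, 0.66 and 0.69 and did not pass either (limma adjusted p = 0.0994, 0.145 and 0.136). By limma-voom on the recovered reads, which weights each value by its read count, that for RPMI/B27 was also 0.81 and passed (adjusted p = 0.0437). On deposited TPM it passed without RPMI/B27 replicate 2 (log2 fold change of TNNT2 0.61, limma adjusted p = 0.0377). The same value was 0.22 without RPMI/B27 replicate 3, 0.11 with the mitochondrial ribosomal RNA gene RNR1 as a covariate and 0.12 without the 2 RPMI/B27 libraries of highest RNR1 (limma adjusted p = 0.337, 0.784 and 0.722). With those 2 libraries left out, TNNT2 passed in RPMI_glcM/B27 and HPLM/B27 (limma adjusted p = 0.0316 and 0.0473), and in RPMI_glcM/B27 it also passed with only the 2 groups in the fit and without RPMI/B27 replicate 3 alone.

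TNNT1, the slow skeletal troponin T, was far below TNNT2 and was higher at Day 30 than at Day 16. Its level was 5.6, 5.45, 4.59 and 7.75 TPM at Day 16, from 23 to 47 reads a library. It was 13.5, 13.4, 22.9 and 20.6 TPM in Day 30 RPMI/B27, 10.9, 7.26, 15.3 and 14.7 TPM in RPMI_glcM/B27 and 24.5, 17.2, 17.5 and 20.5 TPM in HPLM/B27. All libraries of RPMI/B27 and HPLM/B27 were above those of Day 16, whereas replicate 2 of RPMI_glcM/B27 lay within the Day 16 range. The log2 fold change against Day 16 was 1.42 in RPMI/B27 (standard error 0.23, limma adjusted p = 0.000706), 0.90 in RPMI_glcM/B27 (standard error 0.23, limma adjusted p = 0.00975) and 1.62 in HPLM/B27 (standard error 0.23, limma adjusted p = 0.000130), and after rescaling it was 1.72, 1.12 and 1.91, all past the threshold.

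The ratio of TNNT1 to TNNT2 was 0.00200 ± 0.000311 at Day 16, 0.00431 ± 0.000783 for RPMI/B27, 0.00311 ± 0.000748 for RPMI_glcM/B27 and 0.00536 ± 0.000373 for HPLM/B27 (SD, n = 4). It was 2.15-fold higher in RPMI/B27 and 2.70-fold higher in HPLM/B27 than at Day 16 (exact permutation p = 0.0286 each, adjusted p = 0.0403), and 1.53-fold higher in RPMI_glcM/B27, where the libraries overlapped (exact permutation p = 0.0857). Between the media matched in glucose it was 1.76-fold higher in HPLM/B27 (exact permutation p = 0.0286, adjusted p = 0.0403), while TNNT1 alone differed by 0.72 on the log2 scale (standard error 0.23, limma adjusted p = 0.409). TNNT1 stayed a small part of the troponin T level, at most 0.525% of the summed TPM of TNNT1, TNNT2 and TNNT3 in any library of RPMI/B27 and at most 0.576% in HPLM/B27.

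Both troponin T genes moved with RNR1 inside the groups. In each of the 7 libraries above 3000 TPM of RNR1, TNNT1 and TNNT2 were higher than in every library of the same group below that level. In 6 of these 7 libraries TNNI1 was lower than in all libraries of its group below that level, and TNNI3 in 5. The other 9 libraries had at most 1545 TPM of RNR1. How many of all genes split in the same way was not counted, so these counts cannot be called particular to the members. Fitted with RNR1 as a covariate (log2 of its TPM + 1), the log2 fold change of TNNT1 against Day 16 was 0.98 for RPMI/B27, 0.64 for RPMI_glcM/B27 and 1.4 for HPLM/B27, all past the threshold (limma adjusted p = 0.00227, 0.00703 and 1.62e-05). In that fit TNNT1 was also higher in HPLM/B27 than in RPMI_glcM/B27 by 0.75 (limma adjusted p = 0.0268), the 1 of 10 alternatives in which it passed (limma adjusted p from 0.0268 to 0.576). Among the 8 libraries at or under 1000 TPM of RNR1, the ratio of TNNI3 to TNNI1 was 0.332 to 0.381 at Day 16 (n = 3) and 0.638 in RPMI/B27 (n = 1). It was 1.32 to 1.53 in RPMI_glcM/B27 (n = 2) and 2.38 to 2.56 in HPLM/B27 (n = 2). The groups form separate ranges of this ratio over all libraries, so any split of the libraries keeps their order. These values are therefore a description and no check on RNR1.

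**Figure D3:**
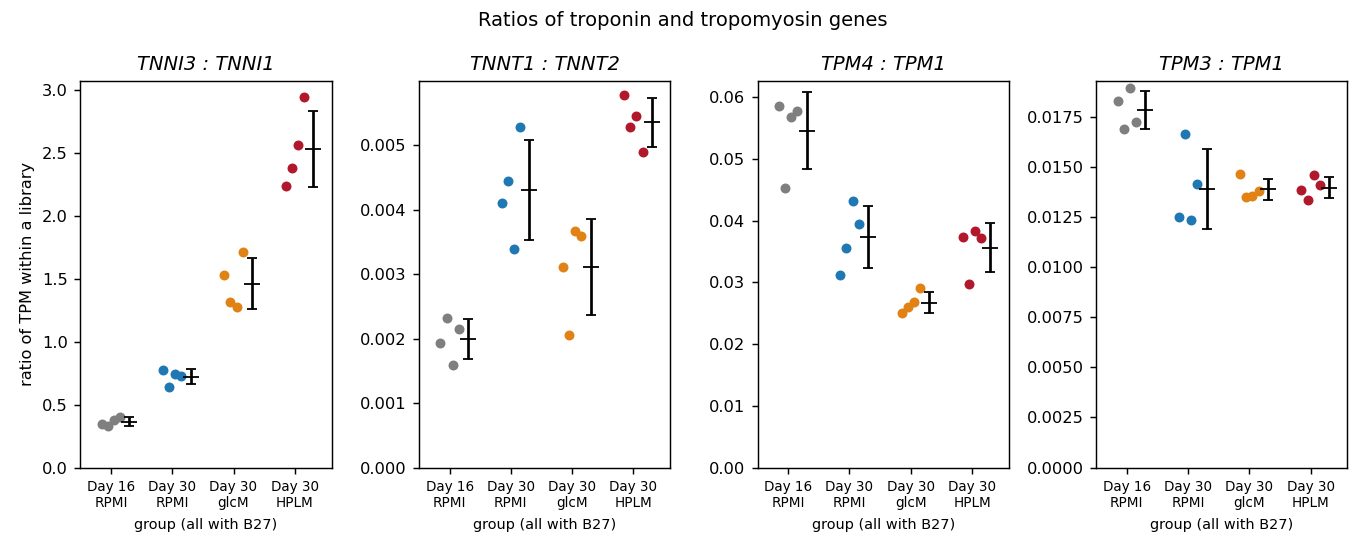
Ratio of TPM within each library for TNNI3 to TNNI1, TNNT1 to TNNT2, TPM4 to TPM1 and TPM3 to TPM1, by group, with black bars at the mean and SD of 4 libraries and axes from 0. The first ratio forms 4 separate ranges with means from 0.365 to 2.53, the third is lowest in RPMI_glcM/B27 at a mean of 0.0267, and the fourth fell after Day 16 from a mean of 0.0179 to about 0.0139 or 0.0140 in each medium.

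TNNC1, the calcium-binding subunit, did not pass the threshold in any comparison. Its level was 3378, 1679.8, 3178 and 3102 TPM at Day 16 and 2637, 2345, 3126 and 2563 TPM in Day 30 RPMI/B27. It was 3159, 3239, 3377 and 3015 TPM in RPMI_glcM/B27 and 3210.4, 2609, 2189.9 and 3114 TPM in HPLM/B27. Replicate 2 of Day 16 was the lowest of all 16 libraries, and all 4 ranges overlapped. Against Day 16 the log2 fold change was -0.044 for RPMI/B27, 0.22 for RPMI_glcM/B27 and 0.0075 for HPLM/B27 on deposited TPM and 0.29, 0.49 and 0.35 after rescaling, so its direction in RPMI/B27 flips with the scaling.

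TPM1, the main striated muscle tropomyosin here, also did not pass in any comparison on deposited TPM. Its level was 1118, 946, 1159.5 and 1067 TPM at Day 16 and 994, 858, 1399 and 749.9 TPM in Day 30 RPMI/B27. It was 934, 970.3, 921 and 799 TPM in RPMI_glcM/B27 and 873, 884, 849 and 1004 TPM in HPLM/B27. Against Day 16 the log2 fold change was -0.14, -0.24 and -0.25 on deposited TPM and 0.20, 0.020 and 0.091 after rescaling, so it has no direction that holds under both. Without the 2 RPMI/B27 libraries of highest RNR1, the deposited values passed as lower in RPMI_glcM/B27 and HPLM/B27 (limma adjusted p = 0.0462 and 0.0364). TPM1 took 80.4% to 82.7% of the summed TPM of TPM1, TPM2, TPM3 and TPM4 as group means, and 92.7% to 93.8% per MANE Select length.

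TPM4, a tropomyosin of the cytoskeleton, was lower at Day 30 on deposited TPM, with its lowest libraries in RPMI_glcM/B27. Its level was 65.4, 42.8, 65.9 and 61.6 TPM at Day 16 and 31.1, 30.6, 60.3 and 29.6 TPM in Day 30 RPMI/B27. It was 23.4, 25.2, 24.7 and 23.2 TPM in RPMI_glcM/B27 and 32.6, 26.3, 32.5 and 37.2 TPM in HPLM/B27. Replicate 3 of RPMI/B27 lay within the Day 16 range, while all other Day 30 libraries were below it. The log2 fold change against Day 16 was -0.67 in RPMI/B27 (standard error 0.20, limma adjusted p = 0.0276), -1.23 in RPMI_glcM/B27 (standard error 0.20, limma adjusted p = 0.000402) and -0.84 in HPLM/B27 (standard error 0.20, limma adjusted p = 0.00613). After rescaling these were -0.34, -0.98 and -0.51, and only that in RPMI_glcM/B27 passed (limma adjusted p = 0.453, 0.0163 and 0.202). On deposited TPM the call in RPMI/B27 was lost without Day 16 replicate 1, 3 or 4 or without RPMI/B27 replicate 4, where the log2 fold change was -0.61, -0.61, -0.64 and -0.58.

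The ratio of TPM4 to TPM1 was 0.0546 ± 0.00624 at Day 16, 0.0373 ± 0.00509 for RPMI/B27, 0.0267 ± 0.00169 for RPMI_glcM/B27 and 0.0356 ± 0.00397 for HPLM/B27 (SD, n = 4). It was lower than at Day 16 in all 3 media without overlap (exact permutation p = 0.0286 each, adjusted p = 0.0403). It was also lower in RPMI_glcM/B27 than in RPMI/B27, at 0.720 of the level there, and 1.33-fold higher in HPLM/B27 than in RPMI_glcM/B27 (exact permutation p = 0.0286 each, adjusted p = 0.0403). Between HPLM/B27 and RPMI/B27 the ratio was 0.955 of the level and the libraries overlapped (exact permutation p = 0.6). In this ratio 4 of the 7 libraries above 3000 TPM of RNR1 were above all libraries of their group below that level.

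TPM3, which has both a slow muscle form and cytoskeletal forms, was lower at Day 30 in each medium on deposited TPM. Its level was 20.5, 16, 22 and 18.4 TPM at Day 16 and 12.5, 14.3, 17.3 and 10.6 TPM in RPMI/B27. It was 13.7, 13.1, 12.5 and 11 TPM in RPMI_glcM/B27 and 12.1, 11.8, 12.4 and 14.2 TPM in HPLM/B27. The log2 fold change against Day 16 was -0.47, -0.57 and -0.56 (standard error 0.14 each, limma adjusted p = 0.0292, 0.00967 and 0.00935), and after rescaling -0.15, -0.32 and -0.25, none past the threshold (limma adjusted p = 0.599, 0.190 and 0.333). Its call in RPMI/B27 was lost without Day 16 replicate 1 or 3 or RPMI/B27 replicate 4, where the log2 fold change of TPM3 was -0.44, -0.41 and -0.37. The ratio to TPM1 fell from 0.0179 ± 0.000947 to 0.0139 ± 0.00198, 0.0139 ± 0.000539 and 0.0140 ± 0.000540 (SD, n = 4; exact permutation p = 0.0286 and adjusted p = 0.0403 for each medium against Day 16). TPM3P9, a pseudogene of TPM3 whose reads may not be separable from it, was listed at 11.3 to 12.8 TPM at Day 16 and 5.18 to 9.82 TPM at Day 30.

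TPM4 and TPM3 are also made outside striated muscle, and summed levels of markers of other cell types were lower than at Day 16 in some media and overlapped in others. The 9 fibroblast markers summed to between 239.7 and 437 TPM at Day 16, 151 to 300.1 in RPMI/B27, 118 to 163 in RPMI_glcM/B27 and 122 to 186 in HPLM/B27. The 7 smooth muscle markers summed to 503 to 991, 294 to 1081, 326 to 434 and 355 to 569 TPM in the same order. All RPMI_glcM/B27 libraries were below all of Day 16 in both sums, and all of HPLM/B27 in the fibroblast sum, while POSTN was no lower in the mean in RPMI/B27 and RPMI_glcM/B27. In the smooth muscle list, CNN1 had a mean of 165 TPM at Day 16 and 186, 136 and 162 TPM in the 3 media. The smooth muscle list had MYH11, a defining gene of smooth muscle, at 0 in all 16 libraries and 6 of 7 genes at a mean of at least 1 TPM. Of the fibroblast list 6 of 9 genes reached a mean of 1 TPM in each group, with DCN, THY1 and TCF21 under it. The 9 hepatic endoderm markers summed to 436 to 777, 321 to 567, 92.4 to 211 and 68.7 to 207 TPM. Within that list ALB went the other way, from a mean of 21.2 TPM at Day 16 to 242, 78.1 and 49.9 TPM. The 8 endothelial markers summed to 42.6 to 54.7, 13.5 to 31.3, 16.3 to 25.3 and 19.2 to 31.2 TPM, most of it KDR, with VWF at 0 in 15 of the 16 libraries. Whether such cells were present, and any part of them in the change of TPM4 and TPM3, was not tested.

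TNNI3K was low and higher at Day 30. Its level was 0.616, 2.4, 2.73 and 1.8 TPM at Day 16, from 7 to 30 reads a library, and 3.7, 3.85, 3.27 and 3.76 TPM in RPMI/B27. It was 5.57, 4.25, 4.9 and 4.61 TPM in RPMI_glcM/B27 and 5.07, 4.55, 4.56 and 4.14 TPM in HPLM/B27. All 12 Day 30 libraries were above the 4 of Day 16. The log2 fold change was 0.75, 1.08 and 1.02 (standard error 0.20 each, limma adjusted p = 0.0180, 0.00140 and 0.00215), and after rescaling 0.98, 1.24 and 1.24, all past the threshold. With only the 2 groups in the fit, with RNR1 as a covariate or without the 2 RPMI/B27 libraries of highest RNR1, the call in RPMI/B27 was lost at a log2 fold change of 0.75, 0.79 and 0.80 (limma adjusted p = 0.119, 0.0544 and 0.0683). Without Day 16 replicate 1, which had 7 reads, it was 0.50 and still passed. The readthrough gene FPGT-TNNI3K shares exons with it and was listed at 1.47 to 4.64 TPM. How the authors' counting treated reads on the shared exons is not given, and it may affect the level of TNNI3K.

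**Figure D4:**
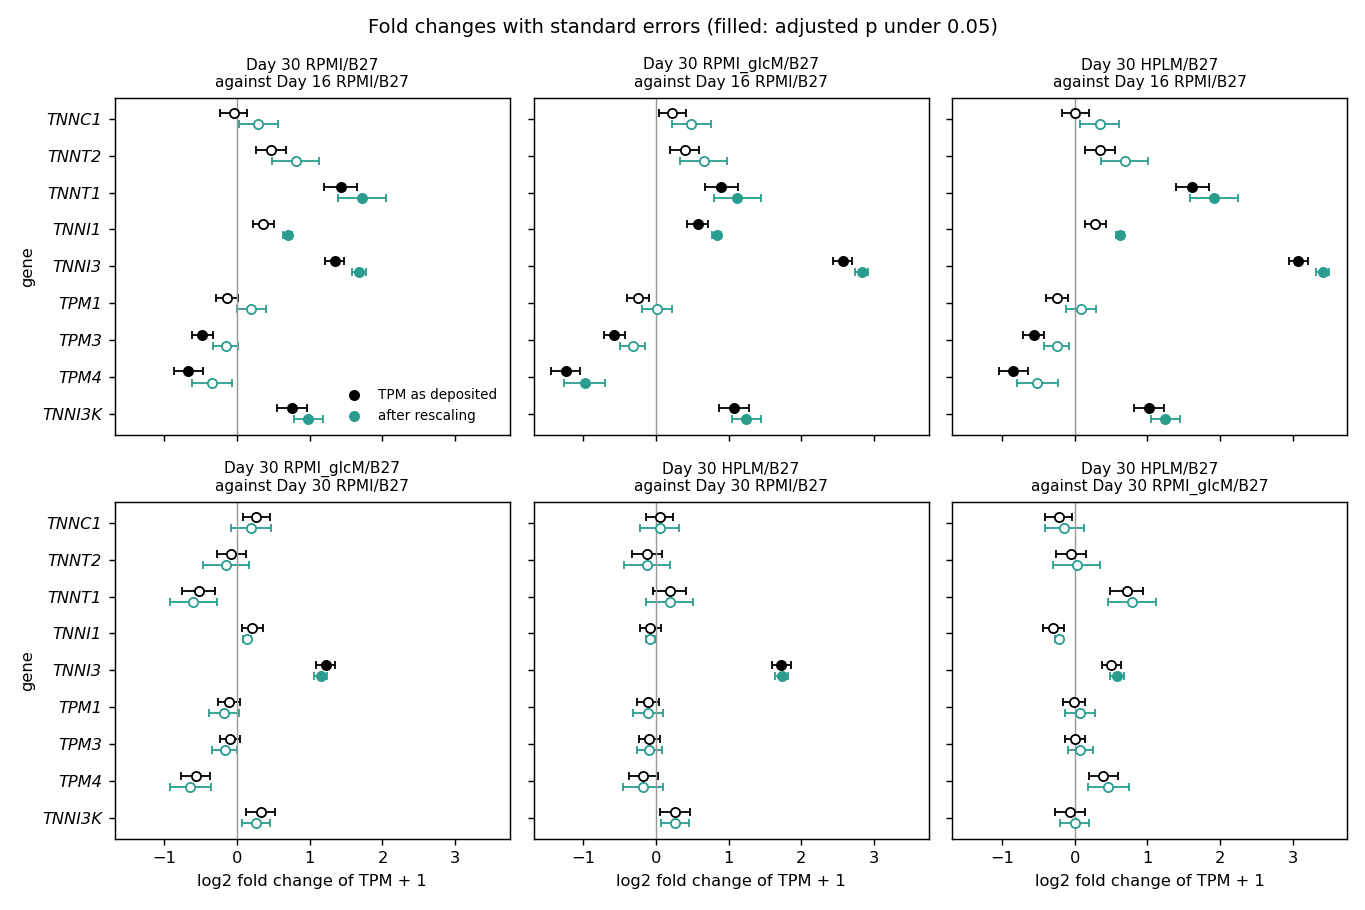
Log2 fold change of TPM + 1 with standard errors for 9 genes in the 6 comparisons, on deposited TPM (black) and after rescaling (green), filled where the limma adjusted p is under 0.05. TNNI3 is the gene filled in 5 comparisons on deposited TPM and in all 6 after rescaling, and TPM3 loses its filled points after rescaling.

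Counted together, 9 of the 10 genes reached the mean of 1 TPM needed for testing. In Day 30 RPMI/B27 against Day 16, 3 rose (TNNI3, TNNT1, TNNI3K) and 2 fell (TPM3, TPM4), where 2.08% of all genes tested rose and 17.8% fell. After rescaling 4 rose (with TNNI1) and 0 fell, where 8.62% and 8.91% of all genes did. In RPMI_glcM/B27 against Day 16, 4 rose (with TNNI1) and 2 fell, against 3.34% and 17.8% of all genes, and after rescaling 4 rose and TPM4 fell, against 13.4% and 14.2%. In HPLM/B27 against Day 16, 3 rose and 2 fell, against 3% and 22.4%, and after rescaling 4 rose and 0 fell, against 12.9% and 12.5%. These 3 comparisons share the Day 16 libraries. The median log2 fold change of the 9 was 0.36, 0.40 and 0.28 beside the medians of all genes given above. The 2 members lower on deposited TPM are near the share of all genes that were lower. The members higher exceed the share that were higher on both scales, but the members were chosen with earlier results of these data known. That excess therefore describes the list and is not a test.

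Among the Day 30 media, TNNI3 was the 1 member past the threshold in RPMI_glcM/B27 against RPMI/B27, where 2.2% of all genes passed, and in HPLM/B27 against RPMI/B27, where 2.41% passed. It was again the 1 member after rescaling, where 12.1% and 12.9% of all genes passed. In HPLM/B27 against RPMI_glcM/B27, 0 of 9 members passed in limma on deposited TPM, where 0.0682% of all genes did. In that comparison 2 members, TNNI3 and TNNT1, had an unadjusted p under 0.05, as 1053 of all 16122 genes did. There 1 member, TNNI3, passed after rescaling (1.63% of all genes) and by limma-voom on the recovered reads (268 of 15423 genes).

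The thin filament genes of the same families outside the 10 were TPM2, TNNT3 and TNNC2. TPM2, the beta tropomyosin, was at 185 ± 21.0, 179 ± 92.9, 153 ± 15.5 and 164 ± 32.2 TPM in Day 16, RPMI/B27, RPMI_glcM/B27 and HPLM/B27 (SD, n = 4) and did not pass in any comparison. Replicate 3 of RPMI/B27 was its highest library at 318 TPM, the library that was also highest in TNNT2 and TPM1. TNNT3, the fast skeletal troponin T, had 0 to 3 reads per library at Day 16 and 5 to 30 at Day 30, at means of 0.163, 1.86, 1.59 and 1.19 TPM in the same group order. It reached the mean of 1 TPM for testing only through the Day 30 groups, so no test is given. TNNC2, the fast skeletal troponin C, was under 1 TPM on average and was not tested. Of the 9 skeletal muscle markers examined beside these skeletal isoforms, MYOD1, MYF5, MYF6 and MYH8 were at 0 in all 16 libraries, MYOG reached at most 2.21 TPM, and the sum of the list was 1.06 to 3.42 TPM over all libraries.

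Of 20 genes of the sarcomere's actin and of proteins that cap, lengthen, bind or take apart actin filaments, with the myosin-binding protein MYBPC3 among them, 19 were tested. In Day 30 RPMI/B27 against Day 16, 3 rose and 4 fell on deposited TPM, beside 2.08% and 17.8% of all genes, and 6 rose and 0 fell after rescaling, beside 8.62% and 8.91%. In RPMI_glcM/B27 against Day 16, 2 rose and 4 fell (3.34% and 17.8% of all genes), and after rescaling 8 rose and 3 fell (13.4% and 14.2%). In HPLM/B27 against Day 16, 4 rose and 2 fell (3% and 22.4% of all genes), and after rescaling 9 rose and 2 fell (12.9% and 12.5%). The 4 that fell in each of the first 2 media are near the share of all genes that fell. LMOD3, a leiomodin that nucleates actin filaments, went from 5.01 ± 1.06 TPM at Day 16 to 15.8 ± 3.33 TPM in RPMI/B27, 16.7 ± 1.31 TPM in RPMI_glcM/B27 and 24.3 ± 2.63 TPM in HPLM/B27 (SD, n = 4). Its log2 fold changes were 1.48, 1.57 and 2.09 (standard error 0.15 each; limma adjusted p = 1.47e-05, 4.69e-06 and 2.47e-07). XIRP2, an actin-binding protein of the intercalated disc, went from 7.25 ± 1.37 to 18.9 ± 4.8, 13.9 ± 3.75 and 26 ± 3.02 TPM (SD, n = 4). LMOD2, the cardiac leiomodin, was at 327 ± 60.5 TPM at Day 16 and rose on deposited TPM in RPMI/B27 and HPLM/B27, to 595 ± 101 and 625 ± 84.1 TPM (SD, n = 4), and after rescaling in RPMI_glcM/B27 too (log2 fold change 0.74, limma adjusted p = 0.0104). Among those that fell on deposited TPM were TMOD3, a tropomodulin of non-muscle cells, which was at 6.02 ± 0.704 TPM at Day 16 and 3.10 ± 0.618 TPM in HPLM/B27, and WDR1, a cofactor of actin disassembly, at 148 ± 27 and 85.9 ± 26.5 TPM in Day 16 and RPMI/B27 (SD, n = 4).

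Between media, LMOD3 was the 1 partner past the threshold in HPLM/B27 against RPMI/B27 (log2 fold change 0.61, standard error 0.15, limma adjusted p = 0.0459), where 2.41% of all genes passed. After rescaling LMOD3 had the same fold of 0.61 and missed the threshold (limma adjusted p = 0.0591). CFL2, MYBPC3 and NEBL passed after rescaling, 3 of 19 partners, near the 12.9% of all genes that did. In limma on deposited TPM 0 of 19 partners passed in RPMI_glcM/B27 against RPMI/B27, with 3 at an unadjusted p under 0.05 and 3 past the threshold by limma-voom. Of all genes, 2408 of 16122 had such an unadjusted p there and 1993 of 15423 passed by limma-voom. Likewise 0 of 19 passed in HPLM/B27 against RPMI_glcM/B27, with 5 at an unadjusted p under 0.05 and 3 past the threshold by limma-voom. For all genes the numbers in that comparison were 1053 of 16122 and 268 of 15423, and 1.63% passed after rescaling. After rescaling, XIRP2 was higher in HPLM/B27 than in RPMI_glcM/B27 by 0.96 (standard error 0.19, limma adjusted p = 0.0217), TMOD2 by 0.63 (standard error 0.10, limma adjusted p = 0.00564) and NEBL, the cardiac nebulette, by 0.35 (standard error 0.08, limma adjusted p = 0.0306).

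Troponin T and tropomyosin transcripts are spliced by muscle splicing factors, and 9 of 10 such regulators were tested. In each medium against Day 16, 0 rose and 3 fell on deposited TPM, where 17.8% to 22.4% of all genes fell. After rescaling 3 rose and 2 fell in RPMI/B27 (8.62% and 8.91% of all genes). In RPMI_glcM/B27, 2 rose and 3 fell (13.4% and 14.2%), and in HPLM/B27, 2 rose and 2 fell (12.9% and 12.5%). RBFOX2 and PTBP1, a repressor of muscle exons, fell in all 3: RBFOX2 was at 15 ± 1.24 TPM at Day 16 and, in the 3 media in the order above, 8.82 ± 1.53, 6.95 ± 0.796 and 7.14 ± 0.875 TPM, and PTBP1 at 18.1 ± 1.52 and 10.2 ± 2.17, 11.5 ± 0.555 and 9.83 ± 0.726 TPM (SD, n = 4). After rescaling both still fell, by 0.40, 0.77 and 0.67 for RBFOX2 and by 0.47 and 0.50 for PTBP1 in RPMI/B27 and HPLM/B27 on the log2 scale, PTBP1 being past the threshold in RPMI_glcM/B27 too, and RBM24, a splicing factor of heart and muscle, rose by 0.35, 0.77 and 0.69, as did MBNL1, a splicing factor of muscle development, by 0.41, 0.47 and 0.46. In limma on deposited TPM 0 of 9 passed between media in any of the 3 comparisons, with 2, 0 and 0 at an unadjusted p under 0.05 and 3, 1 and 0 past the threshold by limma-voom in RPMI_glcM/B27 against RPMI/B27, HPLM/B27 against RPMI/B27 and HPLM/B27 against RPMI_glcM/B27. In the same order, 2408, 2447 and 1053 of all 16122 genes had such an unadjusted p. By limma-voom 1993, 2484 and 268 of 15423 genes passed. The table holds 1 value per gene, so the spliced forms of TNNT2 and TPM1 were not analysed here.

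The genes whose pattern over the 16 libraries was most like that of TNNI3, among 6833 genes of at least 10 TPM on average, were INPP4B (Pearson r = 0.978 of log2(TPM + 1)), FABP3, the fatty acid binding protein of heart (r = 0.968), FAM129A (r = 0.964), MYH7B (r = 0.954) and NPY6R (r = 0.952). For TNNI1 they were ZNF880 (r = 0.936), FZD1 (r = 0.932), SFRP1 (r = 0.920), FXYD6 (r = 0.919) and ITSN2 (r = 0.918). For TNNT1 they were MYL2, the ventricular myosin light chain (r = 0.852), GORAB (r = 0.834), LMOD3 (r = 0.826), CAV1 (r = 0.816) and XIRP2 (r = 0.813). Over the same 16 libraries, the correlation of TNNI3 with its neighbour TNNT1 was 0.664 and with TNNI1 0.595, and that of TNNI1 with TPM4 was -0.750. These values describe 16 libraries that share groups and scaling, and carry no test.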

How the data were processed

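RNA of 16 libraries, 4 per group, was made into stranded total RNA libraries and sequenced on a NovaSeq instrument. The authors aligned reads with STAR 2.5.3a to hg38 with a decoy, counted them with featureCounts 2.0.3 and deposited 1 table of TPM covering 43388 genes. Which annotation, gene lengths and strand setting were used, and what tool made TPM, are not given in the sources used here. Groups and replicates follow the labels. The labels call the replicates biological but none says that they were separate differentiations. The paper describes 4 independent wells per medium and refers to the RNA sequencing as 1 differentiation, so p-values measure the spread between wells.

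Tests covered the 16122 genes whose mean reached 1 TPM, on log2(TPM + 1) with limma 3.58.1 (R 4.3.3, trended prior), all 4 groups in 1 fit, 6 comparisons, Benjamini-Hochberg adjustment over all genes tested and a threshold of 0.05. A fold change on this scale understates the change of low genes. Ratios between members were tested by exact two-sided permutation tests (scipy 1.17.1, Python 3.11.15), adjusted over 24 tests. Whole reads were recovered from TPM for 31047 of 31047 genes above 0, and limma-voom was run on them where the mean reached 10 reads. One read on a gene of 1000 bases was worth 0.139 to 0.314 TPM, which sets the counting error of low genes. Alternatives were another pseudocount (0.1), other filters (all genes above 0, a mean of 5 TPM), rescaling by median-of-ratios factors, removal of mitochondrial, ribosomal RNA and RN7SK genes, fits of only the 2 groups, a replicate block, RNR1 as a covariate, limma-voom and leaving out each library. After the data were seen, the leaving out of the 2 RPMI/B27 libraries of highest RNR1, the split by RNR1 and other gene lengths were added. Each fitting script was tested on simulated data.

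The members and the gene lists were chosen with earlier results of these data known. Named beside the members were, in each comparison, up to 4 genes past the threshold with the largest change from lists of the thin filament family, its partners and splicing regulators, the 5 genes most like TNNI3, TNNI1 and TNNT1, marker genes and family pseudogenes. CFL2, MYBPC3 and NEBL after rescaling fall under the same rule.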

Additional observations from a re-analysis of the deposited data

Results flagged for a closer look

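Each member and ratio was screened in each group of 4 libraries for a library whose gap to the nearest other exceeded Dixon's critical value as a share of the group's range, in 56 groups, of which chance flags about 1 in 20. Replicate 3 of Day 16 was highest in TNNI3 at 171 TPM (gap 0.860 of the range). TNNC1 was lowest in replicate 2 of Day 16 at 1679.8 TPM (gap 0.838), and the ratio of TPM4 to TPM1 was lowest there too at 0.0453 (gap 0.873). In Day 30 RPMI/B27, TPM4 was highest in replicate 3 at 60.3 TPM (gap 0.951) and TNNI2 in replicate 2 at 2.45 TPM, from 11 reads (gap 0.930). TNNI2 was highest in replicate 3 of RPMI_glcM/B27 at 0.379 TPM, from 1 read where the other libraries had 0 (gap 1). The ratio of TPM4 to TPM1 was lowest in replicate 2 of HPLM/B27 at 0.0297 (gap 0.861).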

How the results depend on the processing

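The calls of TNNI3 and TNNT1 against Day 16, and of TNNI3 in RPMI_glcM/B27 and HPLM/B27 against RPMI/B27, held in the 10 alternatives and without each library. The numbers of members past the threshold moved by over 1.5 times in these cases, and the cause was not tested. In RPMI/B27 against Day 16 it was 2 when only the 2 groups were fitted and 3 to 6 without each library, 3 being without replicate 1 or 3 of Day 16. With the 2 RPMI/B27 libraries of highest RNR1 left out it was 8 in HPLM/B27 against Day 16 and 2 in HPLM/B27 against RPMI/B27. In HPLM/B27 against RPMI_glcM/B27 it was 1 after rescaling, without mitochondrial, ribosomal RNA and RN7SK genes, with RNR1 as a covariate, by limma-voom and without those 2 libraries. Ratios of TPM + 1 kept the direction and the call of all 24 ratio comparisons. Without single libraries, 4 ratio differences that were not past the threshold changed sign: TPM4 to TPM1 in HPLM/B27 against RPMI/B27 (-0.15 to 0.019), and TPM3 to TPM1 in RPMI_glcM/B27 against RPMI/B27 (-0.047 to 0.096), in HPLM/B27 against RPMI/B27 (-0.038 to 0.11) and in HPLM/B27 against RPMI_glcM/B27 (-0.013 to 0.035).

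No value that changed sign was past the threshold on deposited TPM. Against Day 16, with log2 values for rescaling, for removal of mitochondrial, ribosomal RNA and RN7SK genes and for limma-voom in that order, TNNC1 in RPMI/B27 was 0.29, 0.15 and 0.30 and TPM1 in RPMI/B27 was 0.20, 0.061 and 0.20. For rescaling and limma-voom, TPM1 was 0.020 and 0.027 in RPMI_glcM/B27 and 0.091 and 0.097 in HPLM/B27. In HPLM/B27 against RPMI_glcM/B27, TNNT2 was 0.028, 0.017 and 0.028 and TPM1 0.071, 0.060 and 0.069 under the 3 settings, and TNNI3K was 0.0011 after rescaling. With RNR1 as a covariate TNNC1 was -0.10 in HPLM/B27 against Day 16, and TNNT2 was 0.080 in RPMI_glcM/B27 and 0.061 in HPLM/B27 against RPMI/B27. With the 2 libraries left out, TNNI1 was -0.070 and TNNT2 0.28 in RPMI_glcM/B27, and TNNT2 0.23 and TPM4 0.049 in HPLM/B27, against RPMI/B27.

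Without each library in turn, TNNC1 ran from -0.28 to 0.058 in RPMI/B27, -0.010 to 0.33 in RPMI_glcM/B27 and -0.23 to 0.12 in HPLM/B27 against Day 16, and from -0.023 to 0.16 in HPLM/B27 against RPMI/B27. Against RPMI/B27, RPMI_glcM/B27 ran from -0.21 to 0.17 for TNNT2, -0.23 to 0.069 for TPM1 and -0.20 to 0.020 for TPM3. HPLM/B27 ran from -0.20 to 0.025 for TNNI1, -0.26 to 0.13 for TNNT2, -0.24 to 0.063 for TPM1, -0.20 to 0.023 for TPM3 and -0.27 to 0.068 for TPM4. In HPLM/B27 against RPMI_glcM/B27 the ranges were -0.11 to 0.019 for TNNT2, -0.064 to 0.029 for TPM1 and -0.053 to 0.042 for TPM3.

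Same-numbered libraries correlated at -0.239 to 0.518 in their deviations from group means, over 0.1 in 12 of 24 pairs. The median was 0.101, against -0.0452 for pairs of different number, and 7 of 16 libraries correlated best with their own number. RNR1 was at 3793 to 29276 TPM in replicate 4 of every group and at 49.5 to 619 TPM in replicate 2. In replicates 1 and 3 it varied between groups, at 127 to 6359 and 121 to 14387 TPM. Such mixed values do not settle whether the numbers pair the samples. With the replicate block the members past the threshold were 6, 6, 6, 1, 1 and 0 in the 6 comparisons, and all genes past it in RPMI/B27 against Day 16 rose from 3203 to 4734. For the ratios, pairs by number can reach no p below 0.125, which says nothing of stability, and leaving out 1 library none below 0.0571. TNNI2 had at most 11 reads in a library, TNNT3 at most 30 and TNNI3K at most 73, so small differences in them were not detectable at this depth.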
